A study of Homo sapiens with 12 samples.

Results

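The genes described here encode the proteins of the mitochondrial ribosome. They were chosen by name, as protein-coding genes of the LNCaP table whose symbol starts with MRPL or MRPS followed by a number, and no measured value entered that choice. The rule found 78 genes of the 58735 in the LNCaP table, and all 78 were found by gene identifier, under the same symbol, among the 61221 genes of the PC3 table. Of these, 51 encode proteins of the large subunit, 26 encode proteins of the small subunit, and MRPS36 encodes a protein of neither.

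The libraries are RNA-seq of 2 human prostate cancer cell lines labelled LNCaP and PC3, both with the genotype label WT; LNCaP cells respond to androgen, whereas PC-3 cells grow without it. The groups were LNCaP with erastin at 5 µmol/L, LNCaP with DMSO, PC3 with erastin at 5 µmol/L, and PC3 with DMSO, each with 3 libraries. DMSO is the solvent, erastin inhibits the cystine and glutamate exchanger system xc- and is widely used to induce ferroptosis, and how long cells were exposed is not stated by the labels. Nor is it stated whether the 3 libraries of a group came from separate cultures. The p-values therefore reflect only how far these samples spread, and part of that may be technical.

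Mitochondria translate the messages of their own genome, all of which encode respiratory chain or ATP synthase subunits, on ribosomes of bacterial descent. The ribosomal RNAs are transcribed inside the organelle, whereas the ribosomal proteins are encoded in the nucleus, made in the cytosol and imported. The small subunit decodes the message, the large subunit joins amino acids, and beside proteins with bacterial relatives both subunits hold proteins found only in mitochondrial ribosomes.

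Of the line markers, KLK3, the prostate-specific antigen gene, had 16.4, 14.5 and 18.9 FPKM in LNCaP erastin 1, 2 and 3 and 185, 202 and 233 FPKM in LNCaP DMSO 1, 2 and 3, against at most 0.0536 FPKM in any PC3 library. CAV1, a caveola gene typical of PC3, had 30.9, 30.7 and 34.3 FPKM in PC3 erastin libraries and 278, 221 and 206 FPKM in PC3 DMSO libraries, against at most 0.138 FPKM in LNCaP. Against the label, CTNNA1, a catenin gene known as deleted in PC-3 cells, had 5.92, 6.61 and 6.18 FPKM in PC3 erastin libraries and 56.7, 50.6 and 51.2 FPKM in PC3 DMSO libraries. "PC3" therefore stands for cells labelled PC3, and the LNCaP results use none of these libraries. The leukocyte genes PTPRC, CD3E and LYZ stayed at or under 0.683 FPKM in all 12 libraries. Reads recovered from the FPKM steps numbered 13709558 to 17668554 per library.

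Promoter sequence is printed for 4 members, chosen to show both response directions, with matches to an NRF1 or an ETS motif. Each is the 250 bases before the RefSeq start on GRCh38.p14, read 5′ to 3′ on the gene's strand, and capitals mark matches on either strand to GCGCANGCG, the core of sites bound by NRF1, or to CCGGAAG, a core of ETS family sites such as those of GABPA. MRPL17, which fell in both lines, has GCGCANGCG matches between bases 81 and 72 and between bases 43 and 35 before its start, in chr11:6683341-6683590 on the minus strand. MRPL58, which fell in PC3, has CCGGAAG matches in chr17:75012420-75012669 on the plus strand. MRPS10, which fell in PC3 and did not pass in LNCaP, has 1 CCGGAAG match in chr6:42217862-42218111 on the minus strand. MRPL44, which rose in PC3, has 1 GCGCANGCG match in chr2:223957213-223957462 on the plus strand.
MRPL17: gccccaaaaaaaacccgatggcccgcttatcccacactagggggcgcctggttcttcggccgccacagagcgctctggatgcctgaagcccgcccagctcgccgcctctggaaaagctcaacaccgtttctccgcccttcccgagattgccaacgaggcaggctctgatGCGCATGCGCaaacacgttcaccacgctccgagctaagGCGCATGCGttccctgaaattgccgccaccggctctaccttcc
MRPL58: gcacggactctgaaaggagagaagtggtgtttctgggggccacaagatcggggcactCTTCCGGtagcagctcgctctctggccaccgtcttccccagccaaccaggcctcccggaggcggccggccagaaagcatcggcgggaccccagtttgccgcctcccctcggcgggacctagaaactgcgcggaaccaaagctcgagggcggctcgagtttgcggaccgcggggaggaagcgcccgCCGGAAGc
MRPS10: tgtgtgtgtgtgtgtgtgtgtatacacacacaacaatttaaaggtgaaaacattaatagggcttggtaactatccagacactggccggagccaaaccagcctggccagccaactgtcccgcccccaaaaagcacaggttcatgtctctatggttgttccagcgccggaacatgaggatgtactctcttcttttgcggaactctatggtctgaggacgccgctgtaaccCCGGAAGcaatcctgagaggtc
MRPL44: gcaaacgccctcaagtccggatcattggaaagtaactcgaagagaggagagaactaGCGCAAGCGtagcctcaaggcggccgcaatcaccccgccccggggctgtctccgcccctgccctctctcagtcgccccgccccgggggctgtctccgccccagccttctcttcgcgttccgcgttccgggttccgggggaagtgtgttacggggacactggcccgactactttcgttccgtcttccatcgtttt

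RefSeq windows, which run from 250 bases before to 50 bases after the start, were at hand for 69 of the 78 members. GCGCANGCG was found for 14 of the 69 members (20.3%), against 9.02% of the 27305 symbols with a window. CCGGAAG was found for 30 members (43.5%), against 12.2% of all symbols, and AANATGGCG, a form of the YY1 motif, for 18 members (26.1%), against 3.85%. CACGTG, the E-box bound by MYC and its relatives, was found for 9 members (13.04%), against 8.77%, and TGATGNAA, a form of the composite site bound by ATF4, for 1 member (1.45%), against 4.46%. A match describes letters on either strand and not binding. None of the motifs contains another, and matches to CCGGAAG and AANATGGCG can share letters at their ends.

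Levels are given in FPKM, a level scaled to gene length and library depth, so they can be set side by side between genes of 1 table. The median member stood at 16.6 ± 2.87 FPKM in LNCaP erastin libraries and 23.2 ± 7.76 FPKM in LNCaP DMSO libraries, and at 11.6 ± 0.258 FPKM in PC3 erastin libraries and 19.7 ± 3.10 FPKM in PC3 DMSO libraries (SD, n = 3 each). Over the 6 libraries of LNCaP the highest mean levels were those of MRPL41, MRPS34 and MRPS26, and in PC3 those of MRPS16, MRPS35 and MRPL41. Levels were not tested between the lines, because their tables use different annotations and 50 of the 78 members have another length in the PC3 table.

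MRPS24 could not be tested in either line and MRPL53 not in PC3. MRPS24, whose protein lies in the small subunit, had 3 to 10 reads per library in LNCaP and 4 to 32 in PC3, and it overlaps the readthrough gene URGCP-MRPS24 on its own strand. MRPL53, a mitochondria-specific large subunit gene, had 24 to 46 reads per library in LNCaP, where it did not pass (log2 fold change 0.09; adjusted p by limma with Benjamini-Hochberg = 0.677), and 0 in each PC3 library. Its length is 1344 bases in the LNCaP table and 685 bases in the PC3 table, and it overlaps CCDC142. Genes that reached 1 FPKM in 3 or more of a line's 6 libraries were tested, which left 77 members in LNCaP and 76 in PC3. MRPL46 passed in PC3 through its DMSO libraries alone, with 0.565, 0.589 and 0.6403 FPKM under erastin against 1.01, 1.09 and 1.298 FPKM under DMSO, so its difference there was bound up with the filter.

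In LNCaP, mitochondrial ribosomal protein transcripts were lower with erastin or did not pass the test, and none passed as higher. Erastin was compared with DMSO on log2(FPKM + 1) with limma, with Benjamini-Hochberg adjustment over all 13683 genes tested and a threshold of 0.05, and every log2 fold change given here is on that scale, which understates the change of low genes. Of the 77 members tested, 20 were called lower (26.0%), against 17.7% of all genes tested, and 0 were called higher, against 13.8% of all genes; either call was made for 31.5% of all genes. An unadjusted p under 0.05 with a higher value was found for 1 member, and limma voom on the recovered reads called 1 higher. The median log2 fold change was -0.40 over the members, against -0.02 over all genes tested. The 3 erastin libraries all lay under the 3 DMSO libraries for 22 of the 77 members. For all genes tested this held for 3331 of 13683 (24.3%), a similar share. They all lay above the DMSO libraries for MRPL38 alone, against 22.2% of all genes.

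Deviations of same-numbered LNCaP libraries from their group means correlated at 0.254, 0.347 and 0.744 for numbers 1, 2 and 3. Erastin 2 correlated with DMSO 1 at 0.612, so pairing by number is clear for number 3 only. Results with the block or by pairs depend on that pairing. With replicate number as a block 43 members were lower and 0 higher, against 26.7% and 23.6% of all genes. Replicate 3 was the highest of the LNCaP erastin libraries for 76 of the 77 members and the highest of the LNCaP DMSO libraries for 74, and 54 members were lower with erastin in 3 of 3 same-numbered pairs, against 36.5% of all genes. The summed FPKM of the members shows the same spread, at 1559, 1360 and 2102 in LNCaP erastin 1, 2 and 3, against 1901, 2319 and 3358 in LNCaP DMSO 1, 2 and 3. Erastin 3 thus exceeded DMSO 1, and the groups overlapped in this sum. As a share of recovered reads the members took 0.377%, 0.348% and 0.470% in LNCaP erastin libraries, against 0.470%, 0.521% and 0.645% in LNCaP DMSO libraries. In bulk RNA, fewer cells of a kind and less RNA per cell cannot be told apart. Without erastin 1 the count of members called lower was 5, without erastin 2 it was 6 and without DMSO 2 it was 9. The shares of all genes in these smaller fits are not given here, so the drop may not be particular to the members.

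In PC3, most of the members tested were lower with erastin and a small group of large subunit genes was higher. Of the 76 members tested, 45 were called lower (59.2%), against 32.4% of all 15371 genes tested, and 6 were called higher (7.89%), against 34.0% of all genes; either call was made for 66.4% of all genes. The median log2 fold change was -0.58 over the members, against 0.00 over all genes tested and -0.13 over the 11810 protein-coding genes among them. The erastin libraries lay wholly under the DMSO libraries for 46 members, against 35.2% of all genes, and wholly above them for 8, against 36.7%. Scaling to the protein-coding total gave 34 lower and 12 higher, and under it the median of all genes itself moved by 0.18, with the members' median 0.58 under that of all genes, as in the FPKM as deposited. The summed FPKM of the members was 1252, 1160 and 1195 in PC3 erastin 1, 2 and 3, against 1720, 1861 and 2081 in PC3 DMSO 1, 2 and 3, with no overlap. PC3 DMSO 1 lay nearer to the erastin mean than to the mean of the other DMSO libraries for 30 of the 76 members, and without it 51 were lower and 8 higher. The counts with protein-coding scaling and without DMSO 1 are given without the shares of all genes in those fits.

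**Figure D1:**
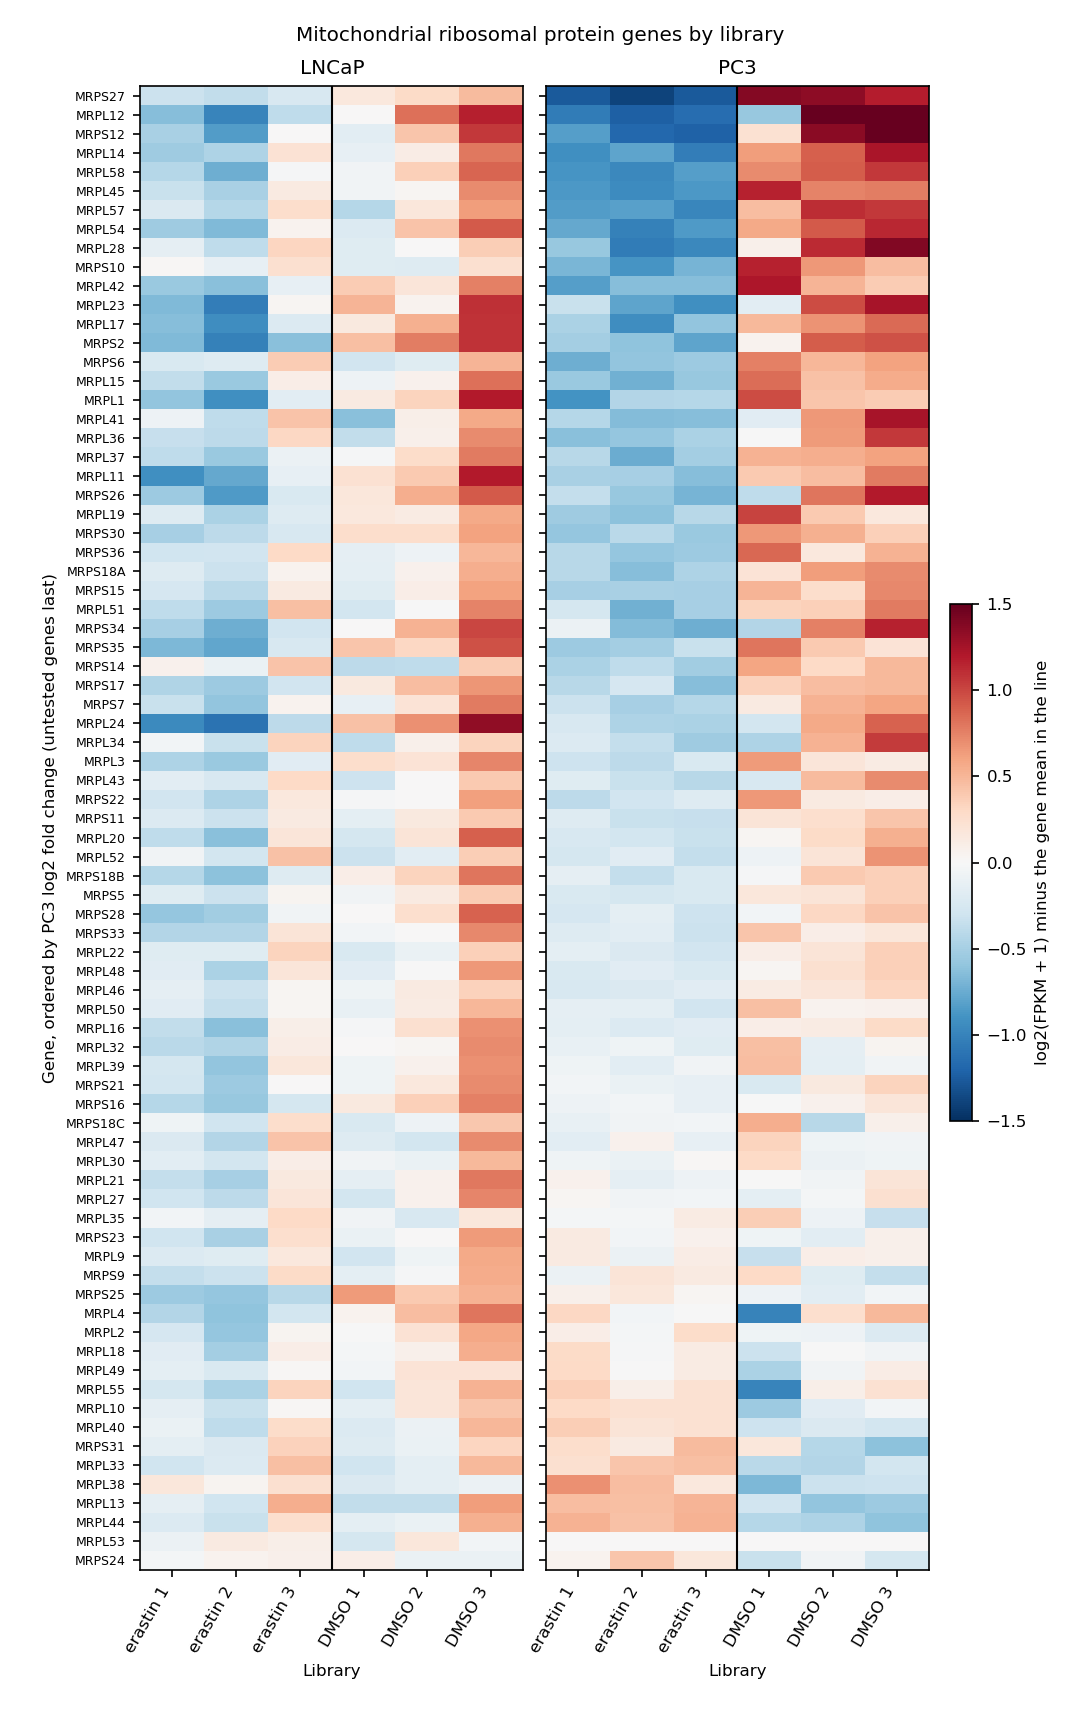
Heat map of all 78 members in each library, as log2(FPKM + 1) minus the gene's mean over the 6 libraries of the line, from blue (lower) to red (higher), with erastin libraries left of DMSO libraries. Rows run from the lowest to the highest PC3 log2 fold change, the untested genes last; the DMSO 3 column of LNCaP is red for most rows, and PC3 DMSO 1 is blue or pale in part of the rows whose other DMSO libraries are red.

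**Figure D2:**
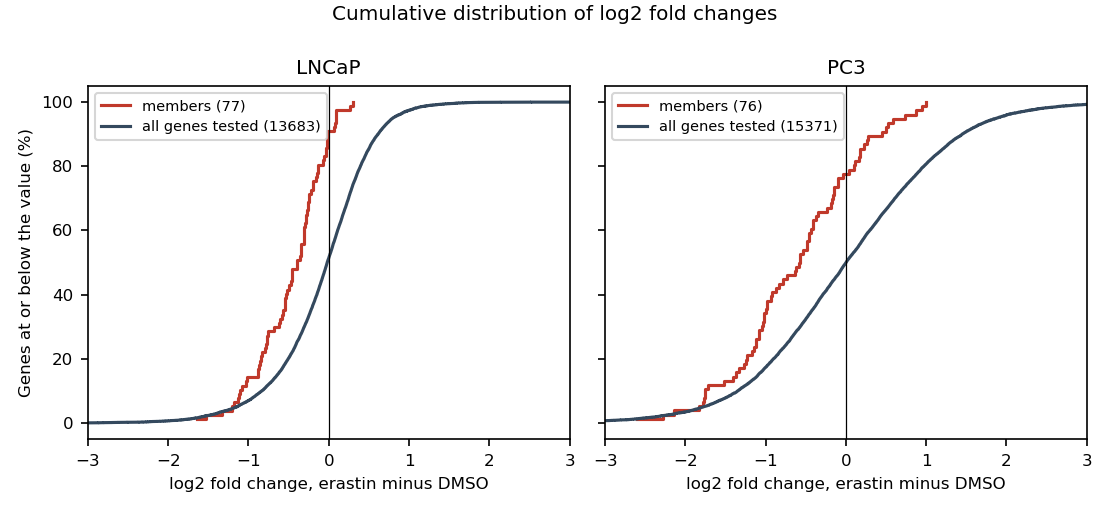
Cumulative share of genes (%) at or below each log2 fold change (erastin minus DMSO) for the members (red) and for all genes tested (dark), LNCaP on the left and PC3 on the right. The members' curve lies left of that of all genes in most of its range in both lines, and crosses 0 with 70 of 77 members below it in LNCaP and 59 of 76 in PC3.

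By subunit, LNCaP had 11 of 51 large subunit genes lower (21.6%), with a median log2 fold change of -0.34. Of the small subunit genes there, 9 of 25 were lower (36.0%), with a median of -0.54, against 17.7% of all genes. PC3 had 27 of 50 large subunit genes lower and 6 higher, with a median of -0.55, and 17 of 25 small subunit genes lower and 0 higher, with a median of -0.59. All 6 members called higher in PC3 thus encode large subunit proteins. Genes of proteins with bacterial relatives had 12 of 44 lower in LNCaP (27.3%) and 26 of 44 lower in PC3 (59.1%). Genes classed as mitochondria-specific had 8 of 32 (25.0%) and 18 of 31 (58.1%). MRPS18A and MRPS18B, though related to bacterial S18, were counted in the mitochondria-specific class. The difference between these classes was not tested.

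The stalk of the large subunit, where translation factors bind, is built on MRPL10 and carries copies of MRPL12, and MRPL11 lies at its base. MRPL12 had 12.1, 9.21 and 14.6 FPKM in LNCaP erastin 1, 2 and 3, against 19.4, 34.9 and 44.4 FPKM in LNCaP DMSO 1, 2 and 3. All 3 erastin libraries were below all 3 DMSO libraries, with a log2 fold change of -1.33 (SE 0.31; adjusted p by limma with Benjamini-Hochberg = 0.0191). In PC3 the same gene had 2.15, 1.798 and 1.97 FPKM under erastin, against 3.41, 19.6 and 32.1 FPKM under DMSO. DMSO 1 stood far under the other DMSO libraries yet above the erastin ones, and the log2 fold change was -2.28 (SE 0.68; adjusted p by limma with Benjamini-Hochberg = 0.022). MRPL12 rests on 26 to 456 reads in PC3 and overlaps the readthrough gene AC139530.2.

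MRPL11 had 6.24, 7.03 and 11.6 FPKM in LNCaP erastin libraries, against 15.02, 16.99 and 30.3 FPKM in LNCaP DMSO libraries, with no overlap and a log2 fold change of -1.21 (SE 0.31; adjusted p by limma with Benjamini-Hochberg = 0.0261). In PC3 it fell by a similar amount, to 10.2, 10.1 and 9.1004 FPKM under erastin, against 19.5, 20.7 and 25.9 FPKM under DMSO (log2 fold change -1.09, SE 0.14; adjusted p by limma with Benjamini-Hochberg = 0.000506). MRPL10, the stalk's base, behaved otherwise. It had 22.4, 19.4 and 24.9 FPKM in LNCaP erastin libraries and 22.2, 28.1 and 33.1 FPKM in LNCaP DMSO libraries, which overlapped, and did not pass the test (log2 fold change -0.30, SE 0.18; adjusted p by limma with Benjamini-Hochberg = 0.24). In PC3 it rose, with 52.7, 49.9 and 49.9 FPKM under erastin, against 28.9, 37.7 and 41.3 FPKM under DMSO (log2 fold change 0.50, SE 0.15; adjusted p by limma with Benjamini-Hochberg = 0.0227). That rise did not pass without any of the erastin libraries or without DMSO 2, with Benjamini-Hochberg adjusted p of 0.0853, 0.0731, 0.074 and 0.0503 by limma. It did not pass with the replicate block either (0.0681), but the numbers do not pair the PC3 libraries, so the blocked value decides nothing here.

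**Figure D3:**
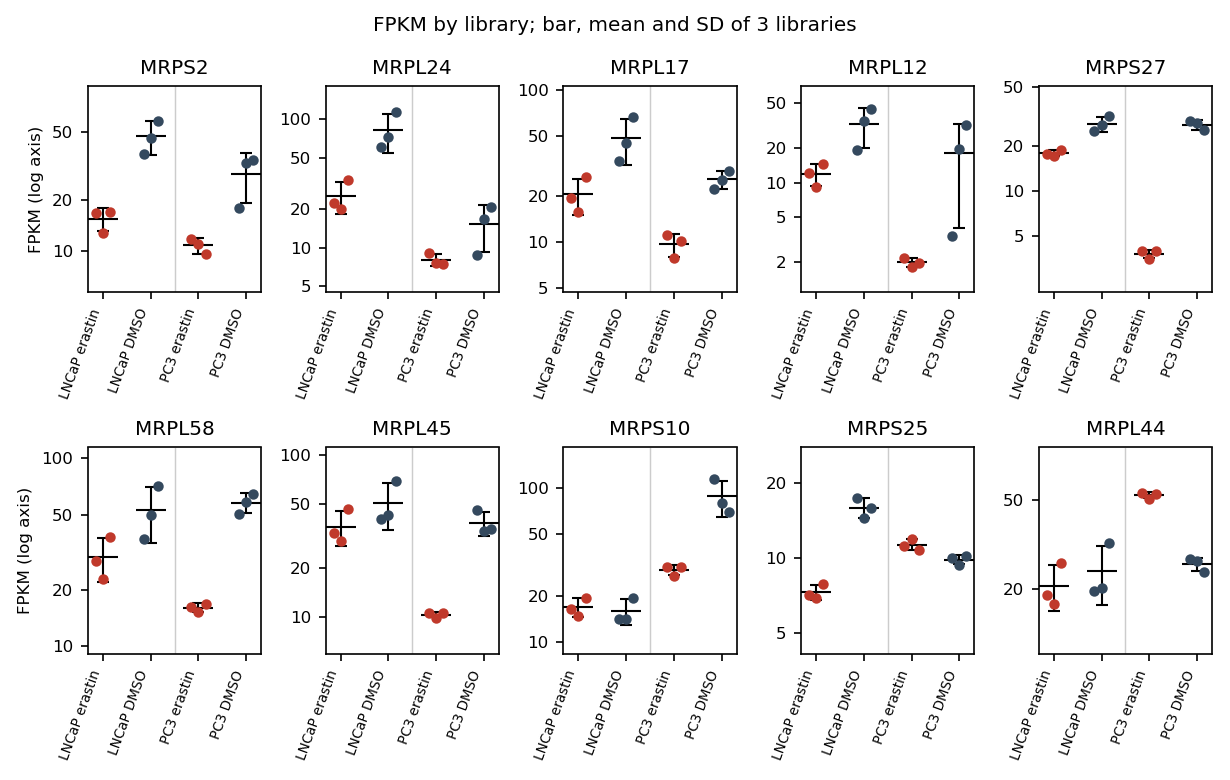
FPKM of 10 members in each library on log axes, erastin (red) left of DMSO (dark) for LNCaP and then PC3; points are libraries, bars the mean and SD of 3. MRPS27 and MRPL45 show wide gaps in PC3, MRPS25 a gap in LNCaP that is missing in PC3, MRPL44 higher erastin points in PC3, and MRPL12 a PC3 DMSO library far under the others.

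Core proteins of the large subunit with bacterial relatives held the deepest LNCaP fall. MRPL24, a relative of bacterial L24, which initiates assembly in bacteria, had 22.4, 20.1 and 33.6 FPKM in LNCaP erastin 1, 2 and 3, against 60.8, 72.4 and 113 FPKM in LNCaP DMSO 1, 2 and 3. The highest erastin library was well under the lowest DMSO library, and the log2 fold change was -1.64 (SE 0.28; adjusted p by limma with Benjamini-Hochberg = 0.00641). In PC3 MRPL24 had 9.05, 7.62 and 7.51 FPKM under erastin and 8.75, 16.6 and 20.8 FPKM under DMSO, where DMSO 1 lay among the erastin libraries. Its PC3 call was at the threshold (log2 fold change -0.78, SE 0.29; adjusted p by limma with Benjamini-Hochberg = 0.0486) and was lost in 11 of 19 alternatives, among them without any erastin library or without DMSO 2 or DMSO 3, with log2 fold changes of -0.86 to -0.54.

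MRPL17, a relative of bacterial L17 at the tunnel exit, was called lower in both lines. It had 19.4, 15.6 and 26.5 FPKM in LNCaP erastin libraries, against 34.2, 44.9 and 66.2 FPKM in LNCaP DMSO libraries (log2 fold change -1.18, SE 0.28; adjusted p by limma with Benjamini-Hochberg = 0.0207), and 11.03, 7.77 and 10.1 FPKM in PC3 erastin libraries, against 22.4, 25.6 and 29.1 FPKM in PC3 DMSO libraries (log2 fold change -1.33, SE 0.16; adjusted p by limma with Benjamini-Hochberg = 0.000429). The groups did not overlap in either line. It overlaps no other annotated gene, and it is the member whose promoter letters hold overlapping NRF1 core matches.

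MRPL14, which lies at the interface of the subunits, and MRPL28, a relative of bacterial L28, fell in PC3 and missed the threshold in LNCaP. MRPL14 had 15.6, 17.2 and 14.3 FPKM in PC3 erastin libraries, against 47.4, 57.6 and 72.4 FPKM in PC3 DMSO libraries (log2 fold change -1.83, SE 0.17; adjusted p by limma with Benjamini-Hochberg = 0.000137). In LNCaP its groups overlapped, with 23.8, 25.04 and 40.8 FPKM under erastin and 32.05, 37.7 and 60.9 FPKM under DMSO (log2 fold change -0.52, SE 0.30; adjusted p by limma with Benjamini-Hochberg = 0.232, and 0.00588 with the replicate block). MRPL28 had 4.51, 2.97 and 3.19 FPKM in PC3 erastin libraries, against 7.65, 16.8 and 20.4 FPKM in PC3 DMSO libraries (log2 fold change -1.72, SE 0.34; adjusted p by limma with Benjamini-Hochberg = 0.00382), and overlaps TMEM8A on its own strand. In LNCaP MRPL28 averaged 15.3 ± 4.12 FPKM under erastin and 16.7 ± 3.52 FPKM under DMSO (SD, n = 3 each), a difference under the spread between replicates.

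MRPL13 and MRPL33, relatives of bacterial L13 and L33, were among the 6 that rose in PC3. MRPL13 had 25.5, 25.3 and 26.5 FPKM in PC3 erastin libraries, against 14.8, 11.8 and 12.2 FPKM in PC3 DMSO libraries (log2 fold change 0.95, SE 0.12; adjusted p by limma with Benjamini-Hochberg = 0.000526). MRPL33 had 16.2, 18.5 and 18.9 FPKM in PC3 erastin libraries, against 10.004, 9.76 and 11.04 FPKM in PC3 DMSO libraries (log2 fold change 0.74, SE 0.12; adjusted p by limma with Benjamini-Hochberg = 0.00133), and overlaps BABAM2 on its own strand. Neither overlapped between the PC3 groups. In LNCaP both sat at the same level in both groups within their spread, at 11.1 ± 3.97 and 16.9 ± 5.37 FPKM under erastin and 10.8 ± 5.09 and 17.2 ± 5.51 FPKM under DMSO (SD, n = 3 each).

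Among mitochondria-specific proteins of the large subunit, MRPL45, which sits at the exit of the peptide tunnel and ties the ribosome to the inner membrane, fell in PC3. It had 10.6, 9.99 and 10.6 FPKM in PC3 erastin 1, 2 and 3, against 45.7, 34.2 and 34.98 FPKM in PC3 DMSO 1, 2 and 3. All 3 erastin libraries lay far under all 3 DMSO libraries, with a log2 fold change of -1.77 (SE 0.14; adjusted p by limma with Benjamini-Hochberg = 7.06e-05). In LNCaP its groups overlapped, with 32.9, 29.4 and 46.1 FPKM under erastin and 40.1, 42.7 and 69.2 FPKM under DMSO. That difference did not pass (log2 fold change -0.46, SE 0.26; adjusted p by limma with Benjamini-Hochberg = 0.227, and 0.0137 with the replicate block).

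MRPL58, also called ICT1, is a peptidyl-tRNA hydrolase built into the large subunit. It had 16.1, 15.2 and 16.9 FPKM in PC3 erastin libraries, against 50.6, 58.5 and 64.8 FPKM in PC3 DMSO libraries, with no overlap (log2 fold change -1.78, SE 0.13; adjusted p by limma with Benjamini-Hochberg = 4.81e-05). In LNCaP the values were 28.4, 22.9 and 38.2 FPKM under erastin and 37.3, 49.9 and 71.3 FPKM under DMSO, where erastin 3 passed DMSO 1 by less than 1 FPKM. The LNCaP difference missed the threshold (log2 fold change -0.79, SE 0.28; adjusted p by limma with Benjamini-Hochberg = 0.0748) and passed it in 9 of 20 alternatives, among them with the block (adjusted p = 0.00917) and without DMSO 1 (log2 fold change -1.01, adjusted p = 0.0401, both limma).

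MRPL44, which has an RNase III-like fold, had the largest rise of the PC3 members. Its level was 53.4, 50.3 and 53.2 FPKM in PC3 erastin 1, 2 and 3, against 27.01, 26.4 and 23.8 FPKM in PC3 DMSO 1, 2 and 3. The groups were each tight and far apart, with a log2 fold change of 1.00 (SE 0.11; adjusted p by limma with Benjamini-Hochberg = 0.000234). In LNCaP it had 18.7, 17.1 and 26.1 FPKM under erastin and 19.6, 20.2 and 31.995 FPKM under DMSO, which overlapped and did not pass (log2 fold change -0.19, SE 0.24; adjusted p by limma with Benjamini-Hochberg = 0.577).

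MRPL40 and MRPL38, which also encode mitochondria-specific proteins of the large subunit, rose in PC3 too. MRPL40 had 27.04, 23.8 and 24.5 FPKM in PC3 erastin libraries, against 16.6, 17.7 and 17.03 FPKM in PC3 DMSO libraries (log2 fold change 0.53, SE 0.11; adjusted p by limma with Benjamini-Hochberg = 0.00432). MRPL38 was low throughout, with 3.76, 3.09 and 2.29 FPKM in PC3 erastin libraries, against 0.8603, 1.36 and 1.38 FPKM in PC3 DMSO libraries (log2 fold change 0.87, SE 0.18; adjusted p by limma with Benjamini-Hochberg = 0.00442). It is the member whose LNCaP erastin libraries all lay above the DMSO ones, at 1.81, 1.55 and 1.93 FPKM against 1.13, 1.25 and 1.34 FPKM, though the difference did not pass (log2 fold change 0.30, SE 0.12; adjusted p by limma with Benjamini-Hochberg = 0.102). It passed in 3 of 19 alternatives there, with limma voom at 0.62 (adjusted p = 0.0272) and with a gene length trend removed at 0.34 (adjusted p = 0.0474, and 0.0493 with the block). MRPL38 shares its strand with the overlapping gene AC087289.3.

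MRPL41, one of the most abundant members in both tables, and MRPL57 are further mitochondria-specific proteins. MRPL41 had 132, 107 and 189 FPKM in LNCaP erastin libraries and 90.3, 149 and 208 FPKM in LNCaP DMSO libraries, a difference far within the spread (log2 fold change -0.02, SE 0.35; adjusted p by limma with Benjamini-Hochberg = 0.972). In PC3 it had 46.5, 39.7 and 40.02 FPKM under erastin, against 55.7, 99.3 and 149.5 FPKM under DMSO, with no overlap but a wide DMSO group (log2 fold change -1.14, SE 0.33; adjusted p by limma with Benjamini-Hochberg = 0.0195). The call was lost without PC3 erastin 2, erastin 3 or DMSO 2, with log2 fold changes of -1.11, -1.11 and -1.11 (adjusted p by limma with Benjamini-Hochberg = 0.0659, 0.062 and 0.0571). MRPL57 had 5.41, 5.53 and 4.81 FPKM in PC3 erastin libraries, against 14.8, 23.8 and 23.03 FPKM in PC3 DMSO libraries (log2 fold change -1.76, SE 0.19; adjusted p by limma with Benjamini-Hochberg = 0.000262), and overlapped between the groups in LNCaP.

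In the small subunit, MRPS2, a relative of bacterial S2, held the next largest LNCaP fall after MRPL24. It had 16.6, 12.8 and 17.03 FPKM in LNCaP erastin 1, 2 and 3, against 37.1, 46.3 and 58.2 FPKM in LNCaP DMSO 1, 2 and 3 (log2 fold change -1.53, SE 0.20; adjusted p by limma with Benjamini-Hochberg = 0.00223). The highest erastin library lay far under the lowest DMSO library. In PC3 MRPS2 had 11.8, 10.99 and 9.53 FPKM under erastin, against 17.8, 33.1 and 34.4 FPKM under DMSO (log2 fold change -1.27, SE 0.25; adjusted p by limma with Benjamini-Hochberg = 0.00391), again without overlap.

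MRPS12, the relative of the bacterial decoding centre protein S12, had 6.42, 4.82 and 4.69 FPKM in PC3 erastin libraries, against 14.5, 32.5 and 39.6 FPKM in PC3 DMSO libraries (log2 fold change -2.14, SE 0.35; adjusted p by limma with Benjamini-Hochberg = 0.00166). DMSO 1 was again the lowest DMSO library, yet above all erastin libraries. In LNCaP MRPS12 had 27.8, 21.6 and 39.5 FPKM under erastin and 35.2, 52.8 and 83.5 FPKM under DMSO, where erastin 3 lay above DMSO 1. The LNCaP difference did not pass (log2 fold change -0.88, SE 0.35; adjusted p by limma with Benjamini-Hochberg = 0.0978), but passed in 6 of 20 alternatives, among them with the replicate block (adjusted p = 0.0128) and without DMSO 1 (log2 fold change -1.18, adjusted p = 0.0403, both limma). MRPS12 overlaps SARS2, which runs on the other strand, and the sources used here do not state whether counting used strand.

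MRPS10, a relative of bacterial S10, had 30.9, 26.7 and 30.7 FPKM in PC3 erastin libraries, against 113, 79.8 and 70.02 FPKM in PC3 DMSO libraries (log2 fold change -1.52, SE 0.19; adjusted p by limma with Benjamini-Hochberg = 0.000472). In LNCaP it had 16.6, 14.9 and 19.4 FPKM under erastin and 14.3, 14.1 and 19.4 FPKM under DMSO, with overlapping groups (log2 fold change 0.09, SE 0.17; adjusted p by limma with Benjamini-Hochberg = 0.715). MRPS16, a relative of bacterial S16, overlaps DNAJC9 on its own strand. MRPS16 fell in LNCaP and did not pass in PC3. It had 40.8, 36.8 and 45.9 FPKM in LNCaP erastin libraries, against 61.3, 70.96 and 93.8 FPKM in LNCaP DMSO libraries (log2 fold change -0.84, SE 0.19; adjusted p by limma with Benjamini-Hochberg = 0.0169), and 78.9, 81.2 and 76.5 FPKM in PC3 erastin libraries, against 83.002, 87.5 and 94.4 FPKM in PC3 DMSO libraries (log2 fold change -0.16, SE 0.11; adjusted p by limma with Benjamini-Hochberg = 0.221). The PC3 groups did not overlap, but the difference was small, and of the alternatives run it passed only without DMSO 1 (log2 fold change -0.20; adjusted p by limma with Benjamini-Hochberg = 0.0366).

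Mitochondria-specific small subunit genes included the largest PC3 fall. MRPS27, a pentatricopeptide repeat protein, had 3.91, 3.47 and 3.92 FPKM in PC3 erastin 1, 2 and 3, against 29.6, 28.9 and 25.6 FPKM in PC3 DMSO 1, 2 and 3. Both groups were tight, and the log2 fold change was -2.60 (SE 0.12; adjusted p by limma with Benjamini-Hochberg = 1.07e-05). In LNCaP it also fell, by much less, with 17.8, 17.3 and 19.03 FPKM under erastin, against 25.4, 27.7 and 31.9 FPKM under DMSO (log2 fold change -0.62, SE 0.13; adjusted p by limma with Benjamini-Hochberg = 0.0116). MRPS27 rests on 324 to 2717 reads in PC3 and overlaps PTCD2 on the other strand.

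MRPS25, another small subunit protein without a bacterial relative, had 7.11, 6.91 and 7.898 FPKM in LNCaP erastin 1, 2 and 3, against 17.4, 14.5 and 15.9 FPKM in LNCaP DMSO 1, 2 and 3. The gap between the groups was several times the spread within them (log2 fold change -1.03, SE 0.11; adjusted p by limma with Benjamini-Hochberg = 0.00132), and the call held in 20 of 20 alternatives. In PC3 the values were 11.2, 11.96 and 10.8 FPKM under erastin and 9.97, 9.396 and 10.2 FPKM under DMSO. The erastin libraries were a little above the DMSO libraries there, without passing (log2 fold change 0.18, SE 0.11; adjusted p by limma with Benjamini-Hochberg = 0.175). They passed as higher with protein-coding scaling (log2 fold change 0.38, adjusted p = 0.0198) and with a gene length trend removed (0.30 and 0.037, both limma with Benjamini-Hochberg).

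MRPS35, MRPS26 and MRPS34, with abundant transcripts of the same class, were each called lower in LNCaP. MRPS35 had 35.6, 32.9 and 48.6 FPKM in LNCaP erastin libraries, against 77.04, 71.5 and 113 FPKM in LNCaP DMSO libraries (log2 fold change -1.13, SE 0.23; adjusted p by limma with Benjamini-Hochberg = 0.0118). MRPS26 had 47.6, 38.4 and 59.5 FPKM in LNCaP erastin libraries, against 78.6, 103 and 133 FPKM in LNCaP DMSO libraries (log2 fold change -1.08, SE 0.25). MRPS34 had 73.2, 62.003 and 84.6 FPKM in LNCaP erastin libraries, against 104, 149 and 209 FPKM in LNCaP DMSO libraries (log2 fold change -1.02, SE 0.27). None of the 3 overlapped between the LNCaP groups. In PC3 MRPS35 fell too, with 52.3, 53.4 and 60.6 FPKM under erastin, against 135, 101 and 88.7 FPKM under DMSO (log2 fold change -0.93, SE 0.17; adjusted p by limma with Benjamini-Hochberg = 0.00288). MRPS26 had 23.9, 20.5 and 18.6 FPKM in PC3 erastin libraries and 23.5, 54.4 and 71.7 FPKM in PC3 DMSO libraries (log2 fold change -1.08, SE 0.38; adjusted p by limma with Benjamini-Hochberg = 0.041). MRPS34 had 29.3, 19.5 and 18.4 FPKM in PC3 erastin libraries and 22.8, 53.1 and 70.5 FPKM in PC3 DMSO libraries. For both, DMSO 1 lay among the erastin libraries and the other DMSO libraries far above them. MRPS34 passed in 3 of 19 alternatives, and without PC3 DMSO 1 it passed with a log2 fold change of -1.44 (adjusted p by limma with Benjamini-Hochberg = 0.000655), against -0.98 and 0.0708 with it.

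MRPS18A, MRPS18B and MRPS18C are paralogs related to bacterial S18, of which MRPS18A has its place in the large subunit. In PC3, MRPS18A had 10.4, 8.75 and 10.01 FPKM under erastin, against 16.5, 22.4 and 23.8 FPKM under DMSO, and MRPS18B had 35.2, 30.1 and 33.1 FPKM under erastin, against 38.4, 51.2 and 50.1 FPKM under DMSO. Both fell there (log2 fold changes -1.02 and -0.49, SE 0.16 and 0.15; adjusted p by limma with Benjamini-Hochberg = 0.00143 and 0.0232). In LNCaP MRPS18B was called lower (log2 fold change -0.83, SE 0.21; adjusted p by limma with Benjamini-Hochberg = 0.0267) and MRPS18A was not (-0.30 and 0.294). MRPS18C passed in neither line, with log2 fold changes of -0.07 in LNCaP and -0.14 in PC3. How reads shared by these paralogs were counted is likewise unstated.

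MRPS30 is named for the small subunit but belongs to the large one. It had 7.71, 8.303 and 9.37 FPKM in LNCaP erastin libraries, against 13.7, 13.7 and 17.7 FPKM in LNCaP DMSO libraries, and 9.85, 11.3 and 10.1 FPKM in PC3 erastin libraries, against 24.5, 22.6 and 19.8 FPKM in PC3 DMSO libraries. It fell in both lines, with log2 fold changes of -0.76 (SE 0.14) in LNCaP and -1.03 (SE 0.13) in PC3 (adjusted p by limma with Benjamini-Hochberg = 0.00791 and 0.000406). MRPS36, now known as a part of the oxoglutarate dehydrogenase complex, fell in PC3, with 9.06, 8.01 and 8.21 FPKM under erastin, against 23.4, 13.99 and 18.3 FPKM under DMSO (log2 fold change -1.03, SE 0.19; adjusted p by limma with Benjamini-Hochberg = 0.00268). In LNCaP its groups overlapped and it did not pass (log2 fold change -0.19, adjusted p by limma with Benjamini-Hochberg = 0.569).

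Several LNCaP calls were lost when 1 library was left out, with unchanged direction and adjusted p by limma with Benjamini-Hochberg of 0.0565 to 0.103. Such a fit also has fewer libraries, so a lost call need not mean that it rested on the library left out. Without erastin 1 the calls of MRPL11, MRPL12, MRPL17, MRPS16, MRPS18B, MRPS26, MRPS27, MRPS34 and MRPS35 were lost, with log2 fold changes of -1.05, -1.35, -1.16, -0.84, -0.82, -1.08, -0.61, -1.02 and -1.07. Without erastin 2 the same genes other than MRPS35 lost their calls, at -1.13, -1.17, -1.01, -0.76, -0.72, -0.93, -0.59 and -0.90, and without DMSO 2 those of MRPL11, MRPL12, MRPL17, MRPS16, MRPS18B, MRPS26 and MRPS34, at -1.31, -1.25, -1.21, -0.87, -0.87, -1.08 and -1.01. The LNCaP calls of MRPL24, MRPS2, MRPS25 and MRPS30 held under each alternative run. In PC3, MRPL12 lost its call without any erastin library or without DMSO 2, at -2.32, -2.24, -2.28 and -2.02. MRPS26 and MRPS18B lost theirs without any erastin library, without DMSO 2 or without DMSO 3, at -1.17 to -0.75 and -0.54 to -0.41.

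Across the lines, 76 members were tested in both. Of these, 16 were called lower in both, 21.1% of the 76, against 8.80% of the 11823 genes tested in both. The 16 were MRPL1, MRPL3, MRPL11, MRPL12, MRPL17, MRPL19, MRPL23, MRPL24, MRPL42, MRPS2, MRPS17, MRPS18B, MRPS26, MRPS27, MRPS30 and MRPS35. A further 29 were called lower in PC3 and not in LNCaP, and 4, MRPL4, MRPS16, MRPS25 and MRPS34, in LNCaP and not in PC3. The 6 called higher in PC3 were not called in LNCaP, 21 were called in neither line, and 0 were called in opposite directions. The log2 fold changes of the lines correlated across the 76 members with Pearson's r = 0.406 and Spearman's rho = 0.397, against 0.290 and 0.307 across the 11823 genes, as a description over genes, which are not independent.

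**Figure D4:**
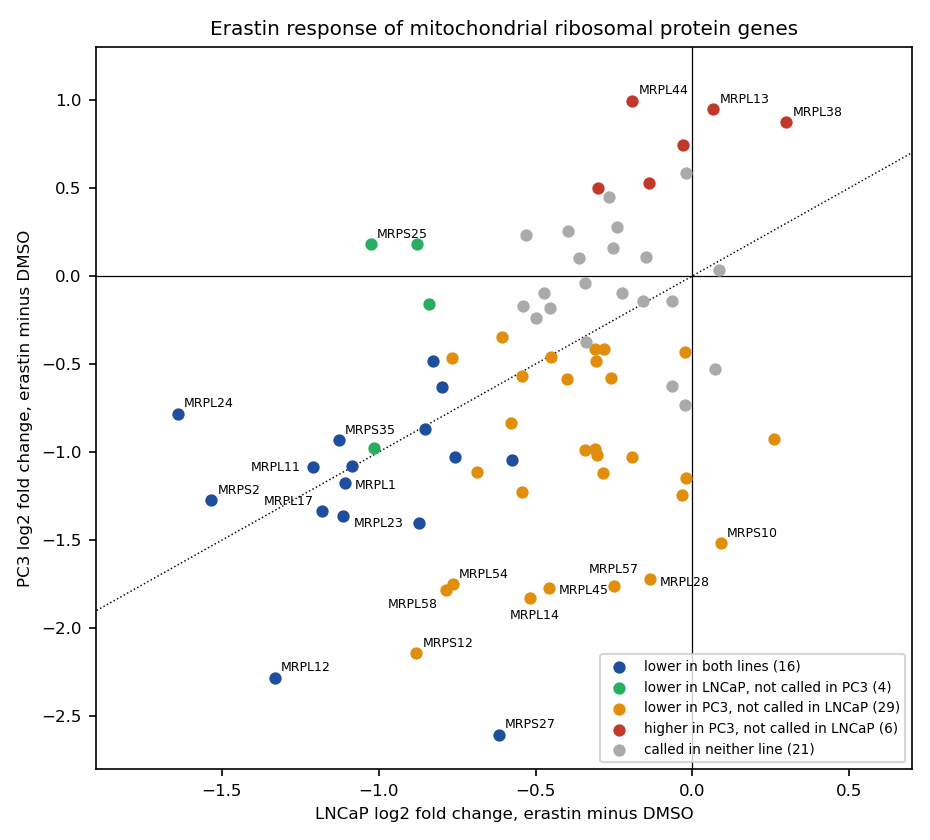
Log2 fold change (erastin minus DMSO) in LNCaP on the horizontal axis and in PC3 on the vertical axis for the 76 members tested in both lines, coloured by call, with the dotted line marking equal values. Of the points, 56 lie below 0 in both lines, and MRPS27 and MRPL12 lie lowest on the PC3 axis.

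Whether the response to erastin differed between the lines was tested as LNCaP minus PC3 of the log2 fold changes, with limma on the 12 libraries together, over 11823 genes. Of the 76 members, 9 had a higher and 5 a lower log2 fold change in LNCaP than in PC3, which is 11.8% and 6.58%, against 21.4% and 23.0% of all genes tested. With the replicate block the counts were 16 higher (21.1%) and 9 lower (11.8%), against 22.3% and 23.9% of all genes. That fit also blocked PC3 by numbers that do not pair its libraries. MRPS27 differed most, with -0.62 in LNCaP and -2.60 in PC3, a difference of 1.99 (SE 0.18; adjusted p by limma with Benjamini-Hochberg = 4.23e-06). MRPS10 had 0.09 in LNCaP and -1.52 in PC3, a difference of 1.61 (SE 0.27; adjusted p by limma with Benjamini-Hochberg = 0.000538). MRPL28 and MRPL57 differed by 1.59 and 1.51 (SE 0.43 and 0.38; adjusted p by limma with Benjamini-Hochberg = 0.0102 and 0.00661). MRPL45, MRPL14, MRPS6, MRPS14 and MRPL58 also passed in this direction, at 1.31, 1.31, 1.21, 1.19 and 1.00. All 9 fell in PC3, and MRPS27 was the only one of them called in LNCaP by the unblocked fit.

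In the other direction, MRPS25 had -1.03 in LNCaP and 0.18 in PC3, a difference of -1.21 (SE 0.16; adjusted p by limma with Benjamini-Hochberg = 9.14e-05). MRPL44 differed by -1.19 and MRPL10 by -0.80 (SE 0.28 and 0.25; adjusted p by limma with Benjamini-Hochberg = 0.00461 and 0.0206), both having risen in PC3. MRPL2, a relative of the bacterial L2 at the peptidyl transferase centre, differed by -0.76 and MRPS16 by -0.68 (SE 0.26 and 0.23; adjusted p by limma with Benjamini-Hochberg = 0.0294 and 0.0329). MRPL2 had 9.26, 7.16 and 11.54 FPKM in LNCaP erastin libraries and 11.2, 13.2 and 17.3 FPKM in LNCaP DMSO libraries, and 1.93, 1.67 and 2.32 FPKM in PC3 erastin libraries and 1.62, 1.59 and 1.37 FPKM in PC3 DMSO libraries. It passed in neither line alone, but in LNCaP it passed with the replicate block (log2 fold change -0.53; adjusted p by limma with Benjamini-Hochberg = 0.0163, against 0.102 without it) and in 4 further alternatives, and in PC3 it passed with protein-coding scaling, at 0.37. It rests on 42 to 81 reads per library in PC3. Without LNCaP erastin 2, the count of lower differences was 2 and MRPL10, MRPL2 and MRPS16 lost their calls, at -0.71, -0.60 and -0.60. Without LNCaP erastin 1 or PC3 erastin 1 or DMSO 2 that count was 3, and without LNCaP erastin 3 or DMSO 1 it was 9 and 8. The count of higher differences was 18 without LNCaP DMSO 3 and 17 without PC3 DMSO 1. These counts are given without the shares of all genes in the same fits. With single libraries left out, the call of MRPL2 was lost for 7 of the 12, that of MRPL58 for 7 and that of MRPS16 for 7, and the 3 differences stayed between -0.78 and -0.60, 0.77 and 1.00, and -0.71 and -0.60 in those fits.

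**Figure D5:**
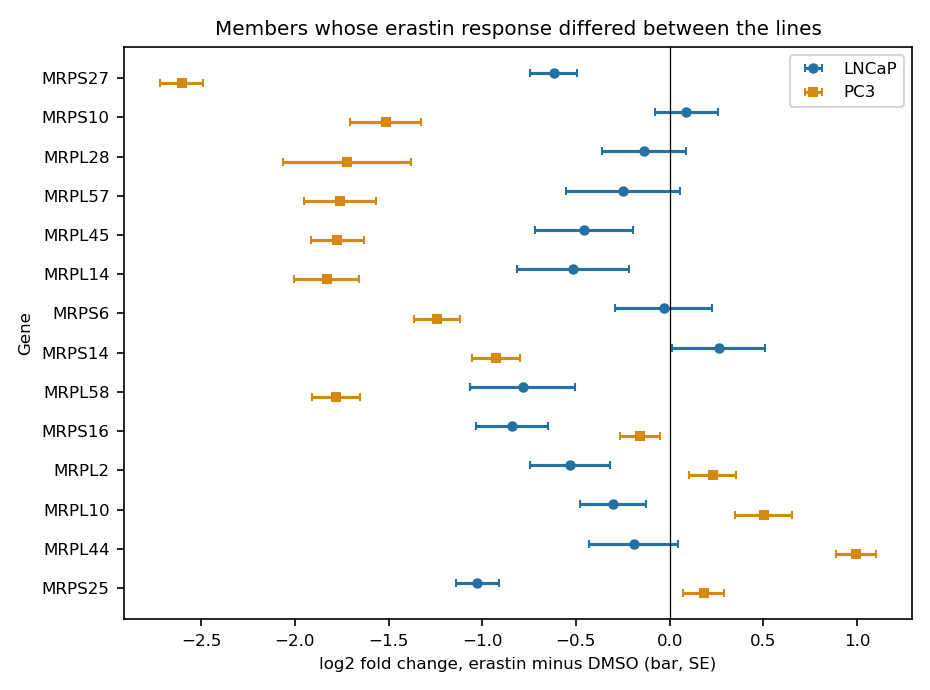
Log2 fold changes (erastin minus DMSO) with their SE in LNCaP (blue circles) and PC3 (orange squares) for the 14 members whose response differed between the lines, ordered by the difference. MRPS27 at the top is far lower in PC3, and MRPS25 at the bottom is lower in LNCaP.

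Other genes of the same pathway were read from lists. Of the 5 mitochondrial ribosome proteins under other names, PTCD3, a small subunit protein, fell in both lines, with 6.47, 6.84 and 8.38 FPKM in LNCaP erastin libraries, against 10.6, 10.2 and 12.1 FPKM in LNCaP DMSO libraries, and 6.31, 6.91 and 7.15 FPKM in PC3 erastin libraries, against 16.96, 12.1 and 12.1 FPKM in PC3 DMSO libraries (log2 fold changes -0.54 and -0.90; adjusted p by limma with Benjamini-Hochberg = 0.0205 and 0.00219). GADD45GIP1, a large subunit protein also called CRIF1, fell in PC3 (log2 fold change -1.09; adjusted p by limma with Benjamini-Hochberg = 0.0311). DAP3, a GTP-binding protein of the small subunit, passed in neither line (log2 fold changes -0.21 and 0.13). Of 28 ribosome assembly and rRNA modification genes tested in LNCaP, 8 were lower (28.6%) and 1 higher (3.57%), with a median of -0.21, and of 27 in PC3, 12 were lower (44.4%) and 3 higher (11.1%), with a median of -0.30. In all genes these shares were 17.7% and 13.8% in LNCaP and 32.4% and 34.0% in PC3. DDX28, an assembly helicase, fell in both lines, by log2 fold changes of -0.95 and -1.64 (adjusted p by limma with Benjamini-Hochberg = 0.0198 and 0.000491). MTERF3 and MPV17L2 rose in PC3, by 0.98 and 1.01 (adjusted p by limma with Benjamini-Hochberg = 0.0023 and 0.00996).

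Mitochondrial translation factors had 3 of 16 lower (18.8%) and 0 higher in LNCaP, and 7 of 15 lower (46.7%) and 2 higher (13.3%) in PC3. LRPPRC, which stabilises mitochondrial messages, had 7.37, 8.34 and 9.41 FPKM in LNCaP erastin libraries, against 27.7, 25.2 and 30.4 FPKM in LNCaP DMSO libraries, and 22.1, 25.03 and 25.8 FPKM in PC3 erastin libraries, against 68.3, 45.3 and 37.7 FPKM in PC3 DMSO libraries. It fell in both lines (log2 fold changes -1.62 and -0.98; adjusted p by limma with Benjamini-Hochberg = 0.000467 and 0.00653). OXA1L, which inserts the new proteins into the inner membrane, fell in PC3 (log2 fold change -1.64; adjusted p by limma with Benjamini-Hochberg = 6.24e-05). Mitochondrial proteases and chaperones had 8 of 12 lower (66.7%) and 0 higher in LNCaP, and 8 of 12 lower (66.7%) and 1 higher (8.33%) in PC3, with LONP1, a matrix protease, at -1.62 and -2.18 (adjusted p by limma with Benjamini-Hochberg = 0.00136 and 0.000488). Mitochondrial transcription and genome upkeep genes had 2 of 9 lower (22.2%) and 1 higher (11.1%) in LNCaP and 2 of 9 lower (22.2%) and 2 higher (22.2%) in PC3, against the same shares of all genes as for the assembly list, with 17.7% lower in LNCaP and 32.4% lower in PC3.

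The rRNAs that these proteins bind were higher with erastin in PC3. MT-RNR1 and MT-RNR2, the rRNAs of the small and large subunit, are made in the organelle. MT-RNR1 had 1834, 2249.8 and 2007 FPKM in PC3 erastin libraries, against 796, 643 and 705 FPKM in PC3 DMSO libraries. MT-RNR2 had 11270.2, 12362 and 12893 FPKM in PC3 erastin libraries, against 6185, 4431 and 3874 FPKM in PC3 DMSO libraries, and neither overlapped. Both rose there (log2 fold changes 1.505 and 1.36, SE 0.15 and 0.21; adjusted p by limma with Benjamini-Hochberg = 0.000149 and 0.00109). In LNCaP, MT-RNR1 had 3582, 3158 and 5426 FPKM under erastin and 2275, 2251 and 4085 FPKM under DMSO, and MT-RNR2 had 15964, 13731 and 19301 FPKM under erastin and 10206, 9261 and 15632 FPKM under DMSO. Both overlapped between the groups, were higher with erastin in 3 of 3 same-numbered pairs and did not pass (log2 fold changes 0.52 and 0.51; adjusted p by limma with Benjamini-Hochberg = 0.336 and 0.369). As a share of reads the rRNAs took 3.03%, 2.73% and 3.54% in LNCaP erastin libraries, against 1.93%, 1.67% and 2.46% in LNCaP DMSO libraries, without overlap. Of the 13 messages of the mitochondrial genome, 0 passed in either direction in LNCaP, against 17.7% of all genes lower and 13.8% higher. In PC3, 2 of the 13 were lower (15.4%) and 0 higher, against 32.4% and 34.0% of all genes. The part of these rRNAs in the members' FPKM was not tested, and the sources used here do not state how far rRNA was removed.

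Of the regulators of mitochondrial gene sets, 4 of 7 tested were lower (57.1%) and 0 higher in LNCaP, against 17.7% and 13.8% of all genes, and 5 of 8 were lower (62.5%) and 2 higher (25.0%) in PC3, against 32.4% and 34.0%. MYC fell in both lines, with 16.5, 16.2 and 16.3 FPKM in LNCaP erastin libraries, against 80.7, 101 and 91.2 FPKM in LNCaP DMSO libraries, and 32.5, 27.8 and 28.05 FPKM in PC3 erastin libraries, against 62.3, 86.98 and 93.9 FPKM in PC3 DMSO libraries (log2 fold changes -2.40 and -1.41; adjusted p by limma with Benjamini-Hochberg = 0.000184 and 0.000453). NRF1, a factor of many nuclear genes for mitochondrial proteins, fell in both (log2 fold changes -0.62 and -0.47; adjusted p by limma with Benjamini-Hochberg = 0.0106 and 0.00998). GABPA and YY1 rose in PC3 (log2 fold changes 0.82 and 0.52; adjusted p by limma with Benjamini-Hochberg = 0.0186 and 0.00617) and did not pass in LNCaP (-0.16 and -0.30). Members with the NRF1 core had 1 of 14 lower in LNCaP and 9 of 14 lower in PC3, and members without it 18 of 54 and 32 of 53. Members with the ETS core had 4 of 30 lower in LNCaP and 14 of 29 in PC3, and members without it 15 of 38 and 27 of 38. For the YY1 motif the counts were 4 of 17 and 11 of 17, against 15 of 51 and 30 of 50 without it. These splits describe the members and were not tested, and the part of the regulators in the members' response was not tested.

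In the genome the members lie on 21 chromosomes. Of the 78, 17 (21.8%) have a coding gene starting within 1000 bases on the other strand, head to head, against 7.37% of 19951 coding genes, and MRPL46 and MRPS11 form such a pair. By annotated span, 38 members overlap a gene on the other strand, 13 overlap a coding gene on their own strand and 29 overlap none. Since the strand setting of the counting is not known, the 29 were read apart: 5 were lower in LNCaP (17.2%), against 17.7% of all genes, with a median log2 fold change of -0.40. In PC3, 17 were lower (58.6%) and 1 higher (3.45%), against 32.4% and 34.0% of all genes, with a median of -0.78. Pseudogenes named after a member number 75, from 34 members, and reads shared with them are uncertain.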

How the data were processed

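Per the labels' protocols, TRIzol was used for extraction and a TruSeq kit for libraries from 1 ug of total RNA. Alignment used HISAT2 2.0.5 on hg38, per the submitters' processing notes, while no source used here names the counting tool or its strand setting. The deposited values are FPKM per gene, made by the authors, in 1 table for each line, with the gene length that the authors used beside them. Reads were recovered from the FPKM steps, and 100% of values came out whole within 0.1 reads, which gave 13709558 to 17668554 reads per library.

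Groups were taken from the labels. The main test was limma 3.58.1 in R 4.3.3, with its variance trend, on log2(FPKM + 1) within each line, for genes at 1 FPKM or more in 3 of 6 libraries, with Benjamini-Hochberg adjustment over all genes tested and a threshold of 0.05. The difference between the lines was an interaction term over all 12 libraries. The fits were tested on simulated data. Tables and figures were made with Python 3.11.15 and matplotlib 3.10.9. Promoter sequence came from RefSeq on GRCh38.p14, matched by symbol.

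The deviations of same-numbered libraries from their group means correlated at 0.254, 0.347 and 0.744 in LNCaP and at -0.380, -0.0135 and -0.311 in PC3. The numbers therefore do not pair the PC3 libraries, and in LNCaP only number 3 pairs clearly. The replicate block was run all the same in LNCaP, in PC3 and between the lines. Between libraries with different numbers the LNCaP correlation reached 0.612.

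Members named singly were the 6 largest falls and rises past the test per line without overlap, the 4 members per direction whose response differed most between the lines, the 3 highest and 3 lowest levels per line, and 13 with a known role. Members and lists were chosen with earlier results of these data known. Alternatives covered the pseudocount, filter, scaling, variance trend, limma voom on recovered reads, the replicate block and each library left out. Chosen after seeing the data were 2 more, namely removal of a gene length trend and a fit without the LNCaP libraries numbered 3.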

Additional observations from a re-analysis of the deposited data

Results flagged for a closer look

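For 12 of the named members the response to erastin differed between the lines by the interaction test. Part of the members were named because of this same test, so the count among them is no result about the members. Of all 76 members tested, 9 were higher (11.8%) and 5 lower (6.58%), against 21.4% and 23.0% of all genes tested. The log2 fold change was higher in LNCaP than in PC3 for MRPS27 by 1.99, MRPS10 by 1.61, MRPL28 by 1.59, MRPL57 by 1.51, MRPL14 by 1.31, MRPL45 by 1.31 and MRPL58 by 1.00. The LNCaP minus PC3 difference was -1.21 for MRPS25, -1.19 for MRPL44, -0.80 for MRPL10, -0.76 for MRPL2 and -0.68 for MRPS16.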

How the results depend on the processing

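No named member that passed the test in the main analysis, and no median of the members, changed direction in any alternative run. The sign changed in 73 settings of 21 results for named members that passed neither in the main analysis nor in that setting. Members not named were not followed singly. Members called lower in LNCaP (20) numbered 12 with no filter on low values, 35 without replicate 3 of both groups, 44 with a gene length trend removed and the replicate block, and 5 to 24 with 1 library left out (5 without erastin 1, 6 without erastin 2, 9 without DMSO 2). Members called higher in LNCaP (0) numbered 1 with limma voom, 1 without replicate 3 of both groups, 1 with the length trend removed and 2 with that and the block. Members called higher in PC3 (6) numbered 12 with protein-coding total scaling, and those called lower (45) ranged over 30 to 51 with 1 library left out. The PC3 median (-0.58) was -0.67 at a pseudocount of 0.1, -0.40 with protein-coding scaling, -0.49 with the length trend removed, with or without the block, and -0.69 to -0.49 with 1 library left out. Differences between the lines, lower and higher (5 and 9), numbered 11 and 15 with protein-coding scaling, 9 and 15 with limma voom, 9 and 14 without replicate 3 of both LNCaP groups, 10 and 18 with the length trend removed, with or without the block, and 7 and 18 with quantile normalization. With 1 library left out they ranged over 2 to 9 and 8 to 18. The causes were not tested. The counts in this paragraph are given without the shares of all genes in the same fits, so their changes may not be particular to the members.

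Log2 fold changes, or their differences between the lines, that changed sign were these. MRPL13 in LNCaP, at 0.066, was -0.19 to 0.40 with 1 library left out. MRPL28 in LNCaP, at -0.14, was 0.0075 with protein-coding scaling and -0.33 to 0.023 with 1 library left out. MRPL33 in LNCaP, at -0.029, was 0.075 with quantile normalization, 0.12 with protein-coding scaling, 0.086 with limma voom, 0.078 with the length trend removed, with or without the block and -0.26 to 0.21 with 1 library left out. MRPL40 in LNCaP, at -0.14, was 0.024 with quantile normalization, 0.010 with protein-coding scaling and -0.31 to 0.080 with 1 library left out. MRPL41 in LNCaP, at -0.019, was 0.34 with quantile normalization, 0.13 with protein-coding scaling, 0.10 with limma voom, 0.039 without LNCaP replicate 3, 0.081 with the length trend removed, with or without the block and -0.34 to 0.26 with 1 library left out. MRPL44 in LNCaP, at -0.19, was -0.37 to 0.027 with 1 library left out. MRPL53 in LNCaP, at 0.092, was -0.017 to 0.20 with 1 library left out. MRPL57 in LNCaP, at -0.25, was -0.52 to 0.0023 with 1 library left out. MRPS10 in LNCaP, at 0.090, was -0.0063 to 0.23 with 1 library left out. MRPS18C in LNCaP, at -0.067, was 0.051 with protein-coding scaling, 0.029 with limma voom and -0.21 to 0.12 with 1 library left out. MRPS36 in LNCaP, at -0.19, was -0.39 to 0.0097 with 1 library left out. MRPS16 in PC3, at -0.16, was 0.059 with protein-coding scaling. MRPS18C in PC3, at -0.14, was 0.013 with protein-coding scaling and -0.38 to 0.093 with 1 library left out. MRPL11 between the lines, at -0.12, was -0.36 to 0.17 with 1 library left out. MRPL17 between the lines, at 0.15, was -0.066 to 0.40 with 1 library left out. MRPL46 between the lines, at 0.13, was -0.053 with the length trend removed, with or without the block. MRPS18C between the lines, at 0.077, was -0.060 with the length trend removed, with or without the block and -0.16 to 0.32 with 1 library left out. MRPS2 between the lines, at -0.26, was -0.42 to 0.032 with 1 library left out. MRPS26 between the lines, at -0.0070, was 0.0076 at a pseudocount of 0.1, 0.000955 at one of 0.5, 0.20 with quantile normalization, 0.0023 with median-ratio scaling, 0.021 with limma voom, 0.024 without LNCaP replicate 3, 0.32 with the length trend removed, with or without the block and -0.33 to 0.45 with 1 library left out. MRPS34 between the lines, at -0.039, was 0.21 with quantile normalization, 0.10 without LNCaP replicate 3, 0.26 with the length trend removed, with or without the block and -0.37 to 0.42 with 1 library left out. MRPS35 between the lines, at -0.20, was -0.37 to 0.0020 with 1 library left out.

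With the replicate block, 43 members were lower in LNCaP (55.8%), against 26.7% of all genes. In PC3 with the block, 36 were lower (47.4%) and 5 higher (6.58%), against 28.5% and 30.5% of all genes. Between the lines with the block, 9 were lower (11.8%) and 16 higher (21.1%), against 23.9% and 22.3% of all genes. By the correlation of deviations, the PC3 numbers do not pair the samples. Members tested on no more than 125 reads in any library of a line were MRPL53 (24 to 46) and MRPL38 (62 to 125) in LNCaP, and MRPL2 (42 to 81) and MRPL46 (50 to 117) in PC3.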
